A study of Mus musculus with 10 samples.

Results

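*Notch1*, *Notch4*, *Dll1*, *Dll4*, *Jag1*, *Jag2*, *Hey1*, *Hey2*, *Heyl*, and *Hes1*, the Notch receptors, ligands, and target genes of the endothelium, were followed in ear skin cells of mice in which Ang2/Tie signaling was interrupted in 3 ways. The 10 genes were chosen by name, and all 10 were found among the 42520 genes joined across the 8 plate tables and among the 32285 genes of both droplet matrices. Another 44 genes of the pathway, also listed by name, were read beside them.

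Smart-seq plates held single lymphatic endothelial cells (LECs) sorted as CD31+ PDPN+ CD45- CD11b- Ter119-, with 2 plates for each of 4 genotypes: *Tie1* fl/fl, Prox1CreERT2 *Tie1* fl/fl (*Tie1* iΔLEC), *Tie1* fl/fl *Tie2* fl/fl (*Tie1 Tie2* fl/fl), and Prox1CreERT2 *Tie1* fl/fl *Tie2* fl/fl (*Tie1 Tie2* iΔLEC). The Cre-positive plates against the controls of their own line are called Tie1 deletion and Tie1/-2 deletion. All of these pups, controls included, were given 62.5 μg 4-hydroxytamoxifen per day from P1 to P5, and the paper places the analysis on P28. The controls carried no Cre, so Cre itself and the deletion cannot be told apart. Prox1 drives the Cre in LECs and in the few other cells that express Prox1. In the *Tie1* line replicate 1 of either genotype is labeled female, and the other plates are labeled male. How many mice went into each plate is not given in the sources used here. A plate was therefore taken as 1 sample, and the p-values measure the spread between plates, which may be technical. Droplet (10x) libraries held cells sorted on CD31 from C57Bl/6j wild-type male pups, with 1 library after control IgG and 1 after Ang2-blocking antibody (Ang2 Ab), given at 20 mg/kg every 3 days from P16 to P21. The title of the antibody library contains the word control, while its treatment label reads Ang2 antibody, and the treatment label was used.

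Notch receptors are cut when a ligand on a neighboring cell pulls on them, and the freed intracellular part joins the DNA-binding protein RBPJ to switch on targets such as the Hes and Hey repressors. In blood vessels the pathway is best known for setting arterial identity and for keeping most cells of a sprout from becoming tip cells, with Dll4 and Jag1 acting as ligands of opposite effect on sprouting. In lymphatic vessels Notch1 signaling bears on sprouting and on the formation of valves, and in mural cells, which are the pericytes and smooth muscle cells around vessels, Heyl and Jag1 are well-known members of the pathway.

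The LEC wells numbered 308 to 365 per plate and held 67163786 to 104626689 counts per plate. LEC markers were present on every plate, with *Prox1* between 657 and 1128 CPM, the counts of a gene scaled to a fixed total per plate. In the droplet libraries 3418 IgG and 2961 Ang2 Ab cells were kept, of which 1366 and 789 fell into clusters with LEC markers, and 5 barcodes occurred in both libraries. Cells were clustered without the Notch genes, and a class is called "-like" because its name rests on marker genes. Clusters that did not meet the naming rule, 528 IgG and 617 Ang2 Ab cells, had no class. The largest of them held 485 and 411 cells, at median depths of 0.172 and 0.155 of the library median. Shallow clusters needed more marker evidence for a name. On the plates *Tie1* was lower with both deletions on average, without a call for Tie1 deletion (log2 fold change -1.93, SE 0.25, adjusted p = 0.256) and past the threshold for Tie1/-2 deletion (log2 fold change -2.14, SE 0.25, adjusted p = 0.00732), in which *Tek*, the gene of Tie2, also fell (-2.82, SE 0.33, adjusted p = 0.00682; all 3 from edgeR).

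The droplet libraries gave the levels of the 10 genes across cell types. Arterial EC-like cells had the highest mean level of 7 of them (*Notch1*, *Notch4*, *Dll4*, *Jag1*, *Jag2*, *Hey1*, and *Hey2*), venous EC-like cells of *Dll1*, mural-like cells of *Heyl*, and collector LEC-like cells of *Hes1*. Levels are UMIs scaled to the total of the class (CPM), each from 1 library, with an exact Poisson 95% interval that covers counting error only. Since UMIs were counted per transcript end, these levels were compared between cell types and not between genes.

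Among the receptors, *Notch1* was found in every endothelial class. Its level in arterial EC-like cells was 405 CPM in the IgG library (636 UMIs in 186 cells) and 437 CPM in the Ang2 Ab library (719 UMIs in 201 cells). Capillary LEC-like cells followed with 415 and 288 CPM, and the intervals of these classes overlapped. Collector LEC-like cells had 203 and 188 CPM, valve LEC-like cells 144 and 111, venous EC-like cells 208 and 179, mural-like cells 149 and 116, and fibroblast-like cells 40.2 and 30.3. *Notch4*, a receptor known for its endothelial expression, was high in blood endothelium. It stood at 188 and 212 CPM in arterial EC-like and at 130 and 154 CPM in capillary blood EC-like cells, and these ranges of intervals did not overlap. In capillary LEC-like cells it was 2.37 and 5.80 CPM, within the intervals of fibroblast-like cells (1.06 and 4.78 CPM), so a difference from these non-endothelial cells was not detectable at this depth. Venous EC-like cells had 15.6 and 28.3 CPM. The 74 and 43 cells of the proliferating LEC-like cluster had 11.7 and 43.9 CPM, but this cluster also carried 7 capillary blood EC markers at a summed 2995 and 3945 CPM, against 579 to 1281 CPM in the capillary, collector, and valve LEC-like classes, so blood EC in it and *Notch4* in LECs cannot be told apart.

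The ligands differed in where they were high. *Dll4*, the ligand of arteries and tip cells, reached 357 and 415 CPM in arterial EC-like cells and 188 and 224 CPM in capillary blood EC-like cells. LEC classes had 38.5 to 93.3 CPM of it, and venous EC-like cells 29.7 and 30.9. *Jag1* was at 459 and 417 CPM in arterial EC-like and at 137 and 166 CPM in mural-like cells, and no other class exceeded 55.0 CPM. *Jag2* was at 372 and 366 CPM in arterial EC-like cells, at 194 and 207 CPM in blood EC-like cells of no further class, and at 153 and 88.8 CPM in the keratinocyte-like cells that came through the sort. *Dll1* had a different order. Venous EC-like cells (90.6 and 61.7 CPM) and arterial EC-like cells (80.9 and 66.8 CPM) overlapped at the top, the LEC classes had 6.76 to 26.8 CPM, and mural-like cells 4.52 and 2.23 CPM. Venous and arterial EC-like cells thus shared a high level of *Dll1* but not of *Hey1*.

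*Hey1*, a transcriptional repressor downstream of Notch, was at 401 and 407 CPM in arterial EC-like cells against 5.00 and 10.6 CPM in venous EC-like cells. When each cell was thinned to 3000 UMIs, 47.2% of 163 arterial EC-like IgG cells had a *Hey1* UMI, against 1.72% of 233 venous EC-like IgG cells and 0 of 42 fibroblast-like IgG cells, which allows a share of up to 7.14%. Without thinning the shares were 66.7%, 5.02%, and 14.9%, at median depths of 7542.5, 12431, and 18853 UMIs per cell, and 23, 26, and 5 cells were too shallow to thin. Collector LEC-like cells had 50.6 and 35.8 CPM of *Hey1* and valve LEC-like cells 11.97 and 6.43.

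*Hey2*, a related repressor of arteries and smooth muscle, was at 37.0 and 31.0 CPM in arterial EC-like cells and at 16.6 and 19.7 CPM in mural-like cells, where it differed by cluster. The mural-like cluster with *Myh11* and *Acta2*, contractile genes of smooth muscle, among its leading genes had 49.3 and 55.2 CPM of *Hey2*. The mural-like cluster led by *Kcnj8* and *Vtn*, genes of pericytes, had 9.60 and 8.76. All 9 mural markers were raised in both clusters. *Heyl* did not follow this division, with 92.2 and 107 CPM in the first and 122 and 127 CPM in the second cluster, and fibroblast-like cells had 23.3 and 28.7 CPM. In LEC-like cells *Hey2* and *Heyl* gave 5 to 9 UMIs per library. *Hes1*, a repressor that many signals besides Notch induce, had its highest mean level in collector LEC-like cells (1058 and 747 CPM), next in valve LEC-like cells (650 and 467 CPM), and at 191 and 243 CPM in arterial EC-like cells. The summed level of 12 genes induced by tissue dissociation, among them *Fos* and *Jun*, was 20672 and 15046 CPM in collector LEC-like and 1742 and 1676 CPM in capillary LEC-like cells (*Hes1*, 306 and 264 CPM), and its part in the level of *Hes1* was not tested. *Lcn2* and *Gdf15*, genes of stress, lead the collector LEC-like cluster. In the coarser of the alternative clusterings no cluster was named collector LEC-like. The control plates did not show this order, with *Hes1* at 110 to 209 CPM in collector LEC-like and 107 to 212 CPM in valve LEC-like wells.

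**Figure D1:**
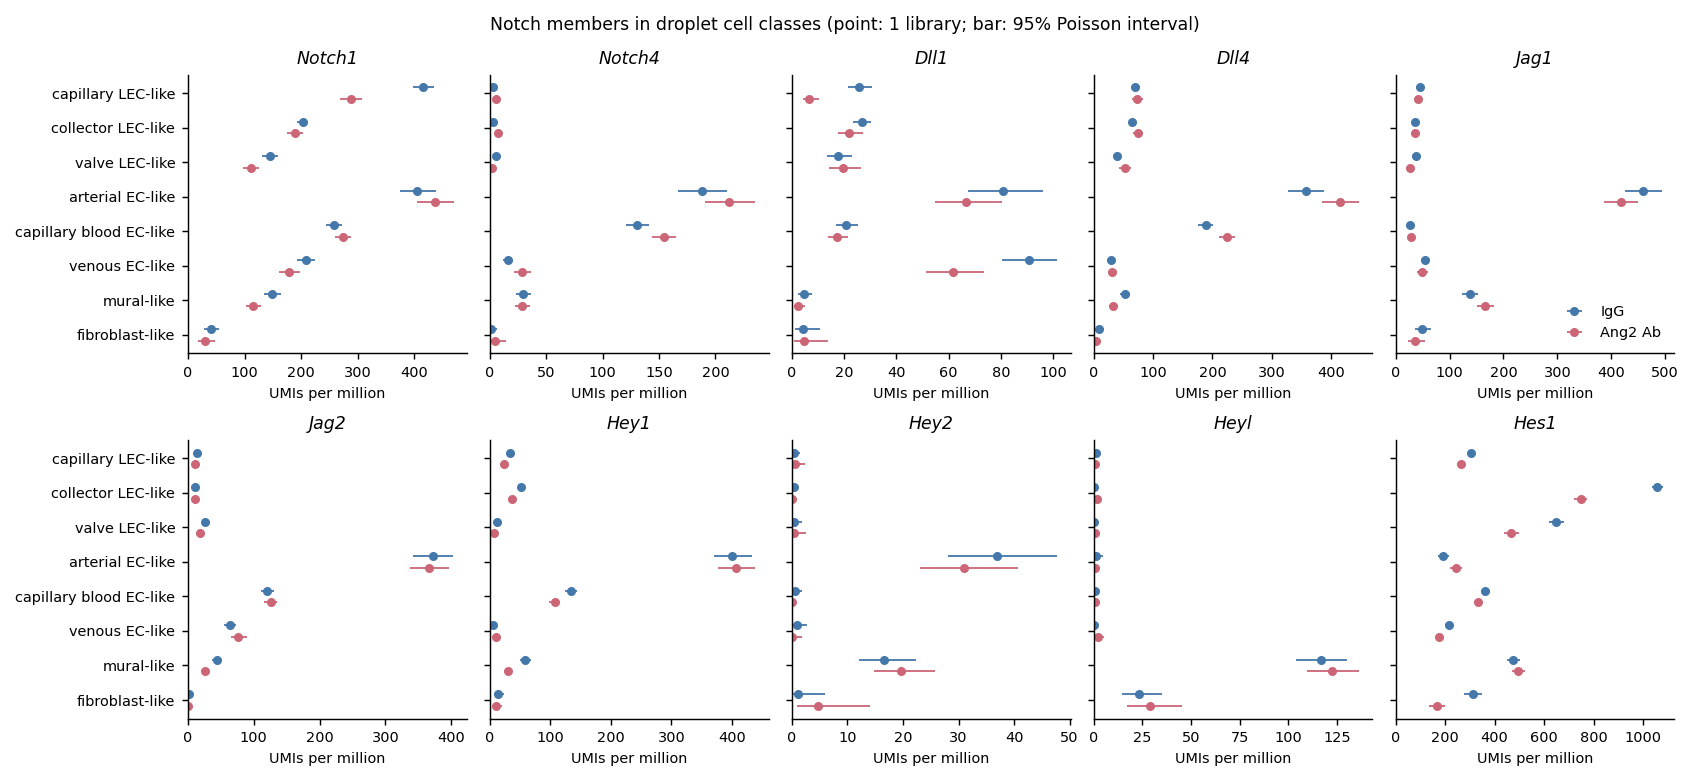
Level of each of the 10 genes in 8 droplet cell classes, in CPM on a linear axis from 0, with 1 point per library (IgG or Ang2 Ab) and its 95% Poisson interval as a bar. Arterial EC-like cells have the highest mean of the libraries in 7 panels, *Heyl* is seen in mural-like cells, and *Dll1* in capillary LEC-like cells is at 25.8 in the IgG and 6.76 in the Ang2 Ab library.

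The genes whose levels ran most alike over 11 classes in 2 libraries (22 points that share library and depth, 9631 genes with at least 500 UMIs) were named by Pearson's r of log2(CPM + 1), as a description. *Notch1* was nearest to *Efna1* (r = 0.91), *Stx6*, and *Magi1*, and *Notch4* to *Rapgef1* (0.96), *AW112010*, and *Sema7a*. Of the ligands, *Dll4* ran with *Cav1* (0.97), the main coat protein of caveolae, with *Elovl5*, and with *Serinc3*. *Jag1* ran with *Specc1* (0.92), *Atp2a2*, and *Gja5* (0.83), a gap junction protein of arteries, and *Jag2* with *Arhgef5* (0.93), *Bcam*, and *Parp10*. *Dll1* had lower values, with *Trpv4* (0.84), an ion channel, *Rph3al*, and *Mindy1*. *Heyl* ran with *Foxs1* (0.96), a transcription factor of pericytes, *Pi15*, and *C1s1*. *Hey1* was nearest to *Parp12* (0.89), *Cmpk2*, and *Cdc42ep1*, and *Hes1* to *Gng5* (0.83), *Zcrb1*, and *Tbcb*. *Hey2* had fewer than 500 UMIs and was not ranked.

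Levels between genes could be compared on the plates, where reads cover whole transcripts, as CPM per kb of exon. The length used is that of all annotated exons of a gene joined, and the transcript in use may be shorter. The order depends on it, with 14.2 kb for *Notch1*, 3.85 for *Dll4*, and 2.04 for *Hes1*. Before division by length, their means on the control plates were 600, 260, and 142 CPM. Over the 4 control plates *Hes1* (69.8 ± 15.3 CPM per kb, SD, n = 4) and *Dll4* (67.6 ± 16.7) were highest and overlapped, and *Notch1* (42.1 ± 11.5) overlapped with *Dll4*. *Hey1* (28.1 ± 3.58) overlapped with *Notch1*, and *Dll1* (26.6 ± 6.77) with *Hey1*. *Jag2* (5.27 ± 1.58) and *Jag1* (3.92 ± 0.501) formed a lower step that did not reach *Dll1*. *Notch4* (0.169 ± 0.0880), *Heyl* (0.0443 ± 0.0490), and *Hey2* (0.0368 ± 0.0339) were at the bottom, all 3 overlapping. LECs sorted on PDPN thus carried *Notch1*, *Dll4*, *Dll1*, *Hey1*, and *Hes1*, and close to none of *Notch4*, *Hey2*, and *Heyl*.

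Deletion of both Tie receptors was followed by a fall of *Dll1* and *Hey1*. Of the 10 genes, 2 passed the test for Tie1/-2 deletion, both lower, in a fit in which 1.17% of 19906 genes were called and 0.869% were called lower (edgeR quasi-likelihood test, Benjamini-Hochberg adjusted p under 0.05). The median log2 fold change of the 10 genes was -0.10, beside 0.0031 over all genes. The plates of deleted and control LECs did not overlap for 4 genes that were lower (*Notch1*, *Dll1*, *Hey1*, and *Hey2*), against 21.4% of all genes, and for 2 that were higher (*Notch4* and *Heyl*), against 15.9%.

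*Dll1*, the gene of a transmembrane Notch ligand (GRCm38, GENCODE M21, chr17:15367354-15376872, minus strand), stood at 154 and 95.002 CPM on the *Tie1 Tie2* fl/fl plates and at 14.2 and 11.0 CPM on the *Tie1 Tie2* iΔLEC plates. The lowest control plate lay far above the highest deleted plate. The level fell 9.73-fold (log2 fold change -3.28, SE 0.37, edgeR adjusted p = 0.00567). In the *Tie1* line it was 109 and 91.5 CPM with *Tie1* fl/fl and 75.6 and 111 CPM with *Tie1* iΔLEC, so these plates overlapped. The fall with Tie1/-2 deletion passed the threshold when any single plate was left out (adjusted p from 0.00878 to 0.0467).

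*Hey1* (chr3:8663359-8667256, minus strand) stood at 101 and 91.3 CPM in the controls and at 9.22 and 15.8 CPM with Tie1/-2 deletion. Again the groups were far apart. The level fell 7.71-fold (log2 fold change -2.95, SE 0.42, edgeR adjusted p = 0.0156). With *Tie1* fl/fl it was 75.4 and 98.98 CPM and with *Tie1* iΔLEC 59.5 and 113 CPM. The call of *Hey1* was lost when any 1 of the 4 plates of this line was left out, with adjusted p of 0.0818 and 0.0561 without control replicates 1 and 2 and of 0.0878 and 0.0598 without deleted replicates 1 and 2, while its log2 fold change lay between -3.31 and -2.69.

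**Figure D2:**
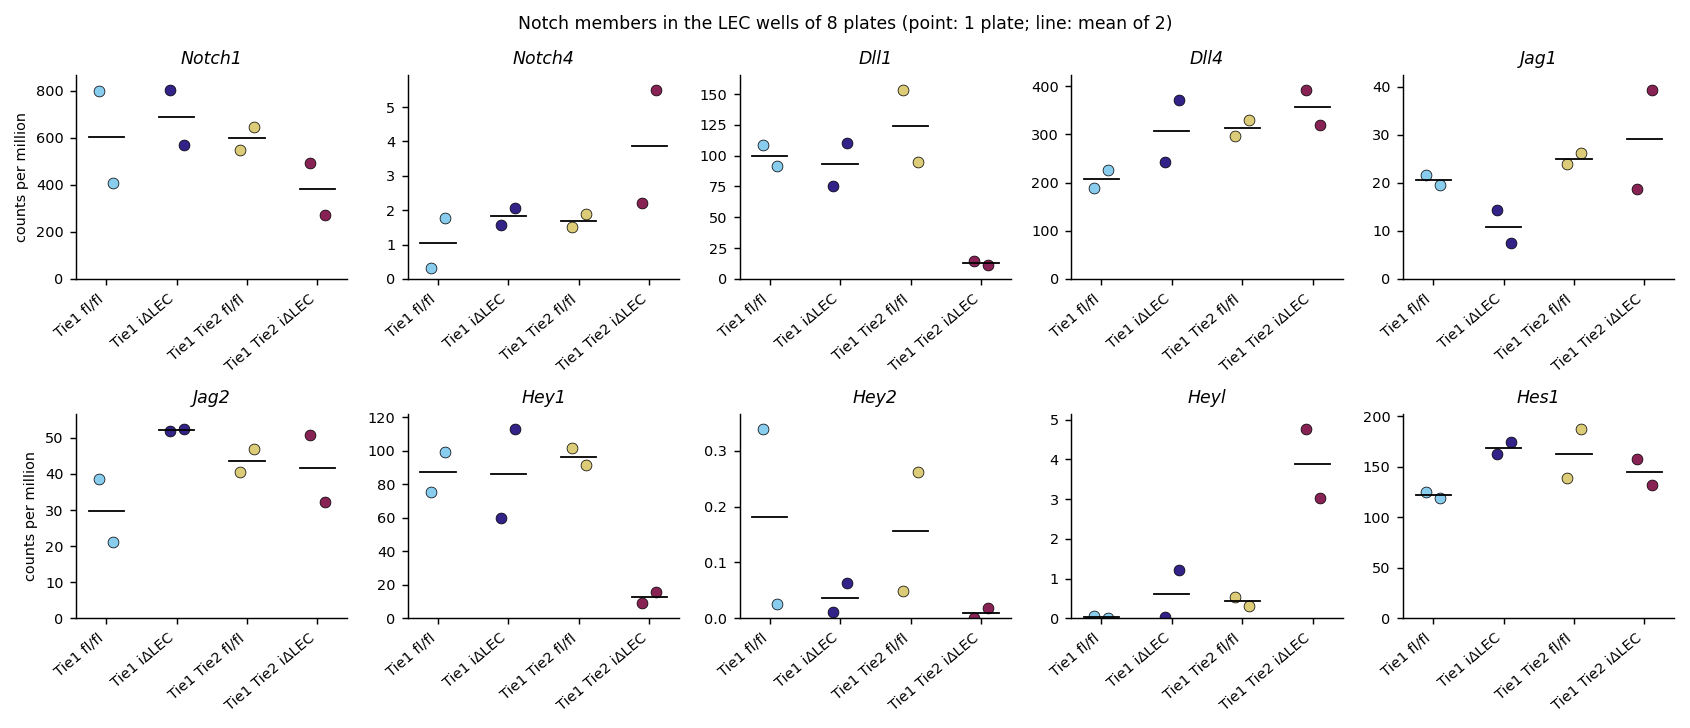
CPM of each of the 10 genes in the LEC wells of each plate, on a linear axis from 0, with 1 point per plate, 2 plates per genotype, and a line at their mean. *Dll1* and *Hey1* are at 9.22 to 15.8 with *Tie1 Tie2* iΔLEC and at 59.5 or more on the 6 other plates.

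Among the other pathway genes, *Efnb2*, which encodes the membrane ligand ephrin-B2 of arteries and lymphatic valves and is a known Notch target, was the only one of 43 tested that was called with Tie1/-2 deletion. It fell from 67.3 and 65.0 CPM to 15.8 and 12.3 CPM (log2 fold change -2.21, SE 0.30, edgeR adjusted p = 0.0133), and its call was lost without control replicate 1 (0.101), control replicate 2 (0.0662), or deleted replicate 2 (0.0727), and with the 4 plates of the line alone (0.0532). With *Tie1* fl/fl it was 72.3 and 70.2 CPM and with *Tie1* iΔLEC 43.6 and 57.5 CPM, without overlap and without a call. The median log2 fold change of these 43 genes with Tie1/-2 deletion was 0.011.

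The bases just before the transcription start of *Dll1* and *Efnb2*, which were called, and of *Hey2*, which was not, are shown. They are given so that the RBPJ core motif TGGGAA can be looked for in them. RefSeq promoters (GRCm38.p6) were available for 7 of the 10 genes, without *Hey1*, *Heyl*, and *Hes1*. Each line gives the 250 bases before the start on the gene's own strand, and capitals mark the motif, which reads TTCCCA when it lies on the other strand. *Dll1* is shown at the outer of 2 starts (chr17:15376933-15377182), *Efnb2* at chr8:8661243-8661492, and *Hey2*, the member that holds the motif, at chr10:30842784-30843033, all on the minus strand.
Dll1: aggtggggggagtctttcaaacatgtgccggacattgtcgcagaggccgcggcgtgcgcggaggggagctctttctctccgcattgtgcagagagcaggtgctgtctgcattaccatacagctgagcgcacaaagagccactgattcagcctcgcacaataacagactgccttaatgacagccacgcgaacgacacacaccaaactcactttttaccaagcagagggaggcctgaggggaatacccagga
Efnb2: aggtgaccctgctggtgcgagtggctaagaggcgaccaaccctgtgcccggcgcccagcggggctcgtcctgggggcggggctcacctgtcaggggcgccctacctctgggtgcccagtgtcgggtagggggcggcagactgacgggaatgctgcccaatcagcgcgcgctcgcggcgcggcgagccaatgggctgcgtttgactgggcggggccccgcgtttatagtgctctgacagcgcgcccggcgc
Hey2: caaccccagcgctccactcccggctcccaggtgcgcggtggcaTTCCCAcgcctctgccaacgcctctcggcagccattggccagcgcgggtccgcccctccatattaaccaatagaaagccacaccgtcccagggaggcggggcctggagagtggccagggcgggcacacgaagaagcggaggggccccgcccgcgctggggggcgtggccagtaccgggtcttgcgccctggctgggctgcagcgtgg
The motif was searched on both strands in windows of this length. It occurred 1 time before *Hey2* and 0 times before *Notch1*, *Notch4*, *Dll1* (both starts), *Dll4*, *Jag1*, *Jag2*, and *Efnb2*, while 21.6% of 32851 promoters held it. The share of G and C was 56.0% before *Dll1*, 72.0% before *Efnb2*, and 71.6% before *Hey2*, with a median of 52.4% over all promoters.

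*Dll1* and *Hey1* were then read within classes of LEC wells, since collector LEC-like wells were fewer on the plates with Tie1/-2 deletion. They numbered 71 and 59 on the control plates and 12 and 12 on the deleted plates. On the *Tie1 Tie2* fl/fl plates *Dll1* was higher in these wells than in any other class of well, with 264 and 204 CPM, and it was 190 CPM on each of the control plates of the *Tie1* line, where 29 proliferating LEC-like wells of replicate 1 had 207 CPM. With Tie1/-2 deletion it was 0.390 CPM (1 count) and 92.3 CPM there. In the clusters without a class, which hold most LEC wells (185 to 268 per plate), *Dll1* was 135 and 76.7 CPM in the *Tie1 Tie2* controls against 12.5 and 6.03 CPM with deletion, and *Hey1* was 115 and 105.5 CPM against 11.0 and 17.1 CPM. In valve LEC-like wells *Dll1* was 134 and 50.7 CPM against 18.5 and 6.46, and *Hey1* 43.2 and 41.9 CPM against 2.70 and 11.9. The deleted plates lay below the controls for both genes in each of these 3 groups of wells, as they did in proliferating LEC-like wells (7 to 19 per plate). The make-up of the groups also differed. The valve LEC-like cluster with *Foxc2* and *Itga9* raised held 33 control and 2 deleted wells of this line, and the other held 72 and 102. Among the clusters without a class, the one led by *Edn1* and *Thbs1* held 52 and 147. The part of these shifts in the falls was not tested. In interferon LEC-like wells (10 to 18 per plate) the plates overlapped, with *Dll1* at 1.501 and 67.2 CPM against 25.9 and 50.1 CPM and *Hey1* at 133 and 20.6 CPM against 26.5 and 0.178 CPM. Without the collector LEC-like wells, an alternative added after the data were seen, both genes remained called for Tie1/-2 deletion.

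**Figure D3:**
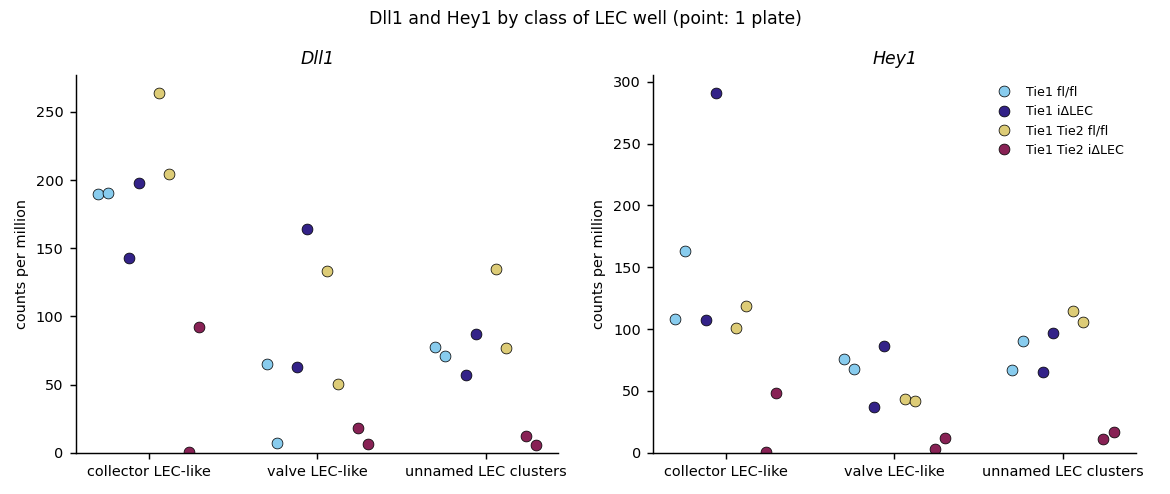
*Dll1* (left) and *Hey1* (right) in CPM on a linear axis from 0, by class of LEC well, with 1 point per plate colored by genotype. In all 3 groups of wells both *Tie1 Tie2* iΔLEC points lie below both *Tie1 Tie2* fl/fl points.

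The share of wells with a read was lower along with the level. After thinning each well to 50000 counts, 29.7% and 31.8% of the *Tie1 Tie2* fl/fl wells had a *Dll1* read, against 4.68% and 5.28% of the *Tie1 Tie2* iΔLEC wells, with 317 to 342 wells per plate and 16 to 23 wells per plate too shallow. The corresponding shares for *Hey1* were 28.7% and 34.9% against 4.39% and 6.74%, and for *Efnb2* 39.4% and 47.5% against 9.65% and 11.4%. The count tables came in a pair of layouts, and each genotype had 1 plate of each, so that replicate 1 and replicate 2 of this line give the fall within each layout. Of the thinned *Tie1 Tie2* fl/fl wells with a *Dll1* read, 28.7% and 38.8% also had a *Hey1* read, beside 28.7% and 33.0% of those without one. On the deleted plates 40 and 70 wells had a *Tek* read after thinning. *Dll1* reads were found in 10.0% and 7.14% of these, beside 3.97% and 4.80% of the wells without a *Tek* read, and these shares rest on 4 and 5 wells with both genes. For *Hey1* the shares were 5.00% and 7.14% with and 4.30% and 6.64% without a *Tek* read, and for *Efnb2* 15.0% and 11.4% with and 8.94% and 11.4% without one.

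Markers of other cells were read on the same plates, since arterial and venous cells carry *Dll1* and arterial cells *Hey1* and *Efnb2*. The summed level of 7 arterial markers was 1868 and 1781 CPM in these controls and 1035 and 864 CPM with Tie1/-2 deletion, with most of it from *Fbln5* and *Stmn2*. The arterial markers *Sema3g* (0.00 to 1.01 CPM) and *Gja5* (1.91 to 12.4 CPM) were low on all 8 plates. *Bmx*, also on this list, was lower with deletion (13.04 and 10.7 CPM against 66.9 and 63.1), as were *Fbln5* and *Stmn2*. *Cxcl12* (39.1 and 32.8 CPM against 20.9 and 23.2) and *Sox17* (84.7 and 39.6 CPM against 0.434 and 5.92) were higher with deletion. The 7 venous markers summed to 732 and 678 CPM in these controls and to 139 and 235 CPM with deletion, a sum not split by gene. General blood EC markers, 6 in number, summed to 692 and 675 CPM against 543 and 614 CPM with deletion. For 7 capillary blood EC markers the sums were 1280 and 1176 CPM against 519 and 632 CPM. The summed level of 12 dissociation genes was 2077 and 1297 CPM in these controls and 2610 and 1633 CPM with deletion, which overlapped. The part of these markers in the falls of *Dll1*, *Hey1*, and *Efnb2* was not tested.

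The other members did not pass the test with Tie1/-2 deletion. *Notch1* was 546 and 647 CPM against 493 and 272 CPM, without overlap (log2 fold change -0.61, SE 0.37, edgeR adjusted p = 0.653). *Dll4*, *Jag1*, *Jag2*, and *Hes1* overlapped between the groups, with log2 fold changes of 0.21 (SE 0.29), 0.20 (SE 0.44), -0.04 (SE 0.36), and -0.15 (SE 0.24). *Notch4* had 1.501 and 1.88 CPM against 2.20 and 5.51 CPM, and *Hey2* at most 0.262 CPM on any of these plates. *Heyl*, the mural gene, was at 0.546 and 0.304 CPM in the controls and at 4.76 and 3.02 CPM with deletion (log2 fold change 3.21, SE 1.74, edgeR adjusted p = 0.592). Few wells carried these counts, with *Heyl* found in 0.822% and 3.07% of the deleted wells and 5.41% and 1.47% of the control wells. Of 320 counts on deleted replicate 1, 270 came from valve LEC-like wells. Of 316 on deleted replicate 2, 157 came from interferon LEC-like wells. The 9 mural markers summed to 74.6 and 28.6 CPM in these controls and to 173 and 156 CPM with deletion, of which *Kcnj8* alone gave 151 and 134 CPM, while *Rgs5*, a defining gene of pericytes, was at 0.0298 and 0.0765 CPM, and the part of mural cells in the level of *Heyl* was not tested.

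Tie1 deletion alone gave 0 calls among the 10 genes and 0.0% of 19906 genes called (edgeR), with 857 genes at an unadjusted p under 0.05. DESeq2 called 0 of the 10 (242 of all genes) and limma 0 of the 9 that passed its filter (1 of all genes). In edgeR 2 of the 10 (*Jag2* and *Heyl*) had an unadjusted p under 0.05, beside the 857 of 19906 genes. The plates of *Heyl* overlapped, with 0.0566 and 0 CPM against 0.0234 and 1.22 CPM. *Jag1* was lower without overlap, with 21.7 and 19.5 CPM against 14.3 and 7.43 CPM (log2 fold change -0.92, SE 0.45, edgeR adjusted p = 1.00), beside 14.0% of all genes that were lower in this way. *Dll4* (189 and 226 CPM against 242 and 372 CPM), *Jag2* (38.5 and 21.1 against 51.8 and 52.5), and *Hes1* (125 and 119 against 163 and 174) were higher without overlap, beside 14.7% of all genes. The median log2 fold change of the 10 genes was 0.36, beside -0.0010 over all genes. *Dll1* and *Hey1* differed by a log2 of -0.07 (SE 0.34) and 0.00 (SE 0.39).

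Whether the deletions differed was tested as an interaction between them. In that contrast 0 of the 10 genes and 0.131% of all genes were called. The log2 fold change of *Dll1* with Tie1/-2 deletion minus that with Tie1 deletion was -3.21 (SE 0.49, edgeR adjusted p = 0.0758) and that of *Hey1* -2.95 (SE 0.57, edgeR adjusted p = 0.158). DESeq2 called both differences (adjusted p of 6.67e-06 and 0.000401), as did limma on the mean CPM per well (0.0187 and 0.0243). In the average of the deletions 1 of the 10 genes was called, *Dll1* (-1.68, SE 0.25, edgeR adjusted p = 0.0244), beside 0.929% of all genes, and *Hey1* had -1.47 (SE 0.28, adjusted p = 0.0646). The call of *Dll1* in the average was lost without the collector LEC-like wells (log2 fold change -1.47, adjusted p = 0.0964) and without any 1 of 6 plates (highest adjusted p = 0.115), the exceptions being replicate 2 of *Tie1 Tie2* fl/fl and replicate 1 of *Tie1 Tie2* iΔLEC, while the log2 fold change lay between -1.86 and -1.48 over the 8 plates left out. *Efnb2* (-1.34, adjusted p = 0.0293) and *Mfng* (4.58, adjusted p = 0.0267), which encodes an enzyme that puts sugars on Notch receptors, were called there among the other pathway genes. *Mfng* was at 0.0113 and 0.0127 CPM with *Tie1* fl/fl, 2.85 and 2.02 CPM with *Tie1* iΔLEC, 3.55 and 3.17 CPM with *Tie1 Tie2* fl/fl, and 3.47 and 18.1 CPM with *Tie1 Tie2* iΔLEC, with 1 count on each *Tie1* fl/fl plate. Its fold change depends on these counts and is no bound. The call of *Mfng* was lost without any 1 of 7 plates (up to 0.134) and that of *Efnb2* without any 1 of 7 (up to 0.155), the exception for both being replicate 1 of *Tie1 Tie2* iΔLEC, with log2 fold changes of 3.81 to 4.92 and of -1.498 to -1.231 over the plates left out.

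**Figure D4:**
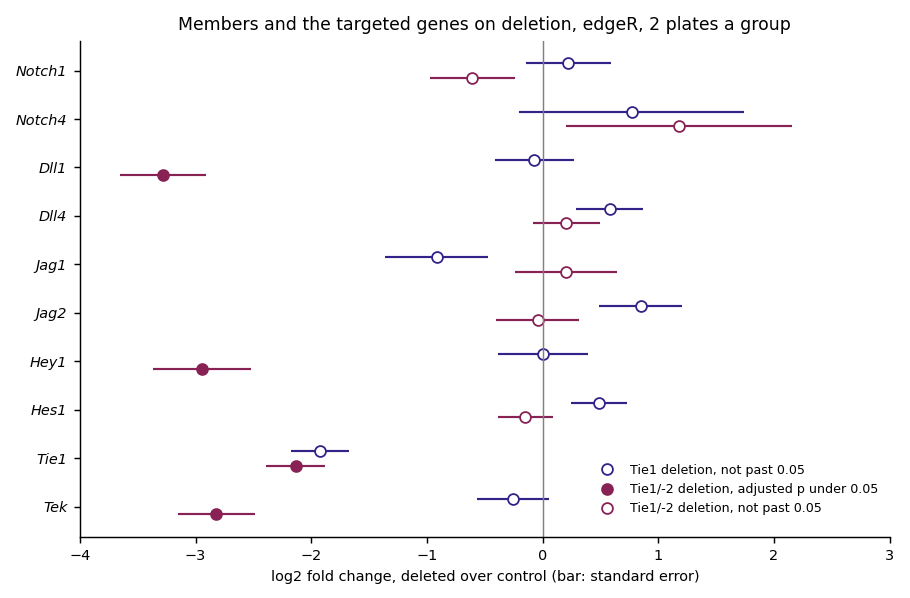
Log2 fold change of deleted over control plates for 8 of the 10 genes and for *Tie1* and *Tek*, with its standard error as a bar, for Tie1 deletion and for Tie1/-2 deletion. Filled points have an adjusted p under 0.05 (edgeR, 2 plates per genotype), and among the 8 genes only *Dll1* at -3.28 and *Hey1* at -2.95 are filled.

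Ang2 Ab was compared with IgG within the droplet classes. With 1 library per treatment there is no test, and ratios are given with an exact conditional 95% interval that covers counting error only. Of 8 members with at least 100 UMIs in LEC-like cells, 3 differed by 1.5-fold or more (*Dll1* and *Hey1* lower, *Notch4* higher), beside 7.33% of 10821 genes, of which 3.86% were lower and 3.47% higher by that much. The median ratio of these 8 was 0.810, beside 1.00 over all genes.

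*Dll1* was at 24.1 CPM in LEC-like cells of the IgG library (439 UMIs) and at 15.7 CPM after Ang2 Ab (157 UMIs), a ratio of 0.651 (0.539 to 0.783). With a mitochondrial limit of 5% in place of 10% the ratio was 0.755, short of 1.5-fold. The lowest ratio among the LEC-like classes was in capillary LEC-like cells, with 25.8 CPM (120 UMIs in 400 cells) against 6.76 CPM (21 UMIs in 253 cells) and a ratio of 0.262 (0.157 to 0.419), a class in which 4.76% of 8112 genes were lower by 1.5-fold. Collector LEC-like cells had 26.8 against 22.0 CPM (0.821, 0.633 to 1.06) and valve LEC-like cells 17.8 against 19.7 CPM (1.11, 0.727 to 1.68), so both intervals include 1. The capillary and collector LEC-like classes also differed in dissociation genes (1742 against 20672 CPM in the IgG library). The coarser clustering named no collector LEC-like cluster, and ratios by class were not redone in other clusterings. Thinned to 3000 UMIs per cell, 8.76% of 388 capillary LEC-like IgG cells and 2.02% of 247 Ang2 Ab cells had a *Dll1* UMI (21.5% and 7.11% without thinning, at medians of 11034.5 and 11174 UMIs, with 12 and 6 cells too shallow). In mural-like cells, where the gene is near 0, the thinned shares were 0.621% of 161 cells and 0 of 203 cells, which allows up to 1.48%, at medians of 11567 and 10351 UMIs. *Dll1* was also lower after Ang2 Ab in venous EC-like cells (90.6 against 61.7 CPM, ratio 0.681, 0.547 to 0.845), and in arterial EC-like cells the interval included 1 (0.826, 0.634 to 1.07). The 7 venous markers summed to 6158 and 4297 CPM in the venous class, and the part of this in the ratio was not tested. That class joins a cluster of 129 IgG and 125 Ang2 Ab cells, with *Dll1* at 76.7 and 56.8 CPM (overlapping intervals), and one of 130 and 77 cells, with 99.9 and 65.7 CPM. In capillary LEC-like cells 7 collector markers summed to 767 and 428 CPM and the 7 LEC markers to 21622 and 16052 CPM, and their part was not tested either.

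*Hey1* was at 37.5 CPM (681 UMIs) against 23.1 CPM (231 UMIs) in LEC-like cells, a ratio of 0.618 (0.530 to 0.718). The ratio was 0.696 (0.520 to 0.925) in capillary LEC-like and 0.708 (0.581 to 0.858) in collector LEC-like cells, and 0.537 (0.268 to 1.02) in valve LEC-like cells. In proliferating LEC-like cells, with 47 and 4 UMIs, it was 0.200 (0.0522 to 0.546). That cluster also carried blood EC markers, as given above, and their part was not tested. The collector LEC-like class held 593 of 1366 LEC-like IgG cells and 262 of 789 LEC-like Ang2 Ab cells. Within it the collector markers summed to 1479 and 836 CPM, 7 capillary LEC markers to 2468 and 4350 CPM, and the dissociation genes to 20672 and 15046 CPM, and their part in the ratio of *Hey1* was not tested. In arterial EC-like cells, where *Hey1* is highest, the ratio was 1.02 (0.909 to 1.13), in capillary blood EC-like cells 0.799 (0.712 to 0.898), and in venous EC-like cells, with 16 and 21 UMIs, 2.13 (1.06 to 4.36). In mural-like cells it was 0.506 (0.381 to 0.668), where the arterial markers summed to 1402 and 949 CPM, the capillary blood EC markers to 5249 and 4113 CPM, and the dissociation genes to 18355 and 12979 CPM, and the part of these was not tested. *Hes1* was at 743 against 509 CPM in LEC-like cells (0.685, 0.663 to 0.708). Its ratios in capillary, collector, and valve LEC-like cells were 0.865 (0.793 to 0.943), 0.707 (0.678 to 0.737), and 0.719 (0.666 to 0.775). *Hes1* was also lower in venous EC-like (0.817, 0.716 to 0.931) and capillary blood EC-like cells (0.917, 0.857 to 0.981). The same held for blood EC-like cells of no further class (0.832, 0.745 to 0.930) and fibroblast-like cells (0.531, 0.421 to 0.666). In arterial EC-like cells the ratio of *Hes1* was 1.27 (1.09 to 1.48). In mural-like (1.04, 0.965 to 1.13) and keratinocyte-like cells (1.18, 0.936 to 1.499) its interval included 1. The dissociation genes were lower after Ang2 Ab in collector LEC-like cells, as given above, and also in other classes. They summed to 14651 and 10816 CPM in valve LEC-like, 15204 and 12962 in venous EC-like, and 14709 and 11929 in capillary blood EC-like cells. In blood EC-like cells of no further class they were at 17234 and 9649 CPM, and in fibroblast-like cells at 18029 and 17011. Where *Hes1* was not lower, they were at 12161 and 11882 CPM (arterial EC-like), 18355 and 12979 (mural-like), and 13866 and 12337 (keratinocyte-like). Their part in the ratios of *Hes1* was not tested.

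*Notch1* was lower in LEC-like cells (246 against 202 CPM, ratio 0.818, 0.776 to 0.863), most so in capillary LEC-like cells (0.693, 0.639 to 0.751). It was also lower in venous EC-like (0.857, 0.751 to 0.977) and mural-like cells (0.777, 0.668 to 0.904). In blood EC-like cells of no further class it was higher (1.21, 1.09 to 1.35). In the arterial EC-like, capillary blood EC-like, fibroblast-like, and keratinocyte-like classes its interval included 1. In capillary LEC-like cells the summed LEC markers went from 21622 to 16052 CPM, and their part in the ratio of *Notch1* was not tested. *Dll4* was higher in all LEC-like cells (60.7 against 70.3 CPM, 1.16, 1.05 to 1.27). By class its interval included 1 in capillary (1.04, 0.878 to 1.24) and collector LEC-like cells (1.14, 0.983 to 1.31). It was above 1 in valve (1.35, 1.03 to 1.76) and proliferating LEC-like cells (1.70, 1.22 to 2.34). The part of blood EC in the proliferating cluster was not tested. *Dll4* was also higher in arterial EC-like (1.16, 1.04 to 1.30) and capillary blood EC-like cells (1.19, 1.09 to 1.30). In mural-like cells it was lower (0.629, 0.476 to 0.828). In all LEC-like cells *Jag1* had a ratio of 0.900 (0.791 to 1.02) and *Jag2* of 0.802 (0.648 to 0.989). There *Notch4* went from 4.18 CPM (76 UMIs) to 8.21 CPM (82 UMIs), a ratio of 1.96 (1.42 to 2.72). Of these UMIs 20 and 32 came from the proliferating LEC-like cluster, in which summed LEC markers went from 9115 to 5492 CPM and the capillary blood EC markers from 2995 to 3945 CPM, and the part of blood EC in the ratio was not tested. By class the ratio of *Notch4* was 2.45 (1.10 to 5.74) in capillary, 2.30 (1.30 to 4.05) in collector, and 0.334 (0.0818 to 1.02) in valve LEC-like cells, each from 28 or fewer UMIs per library. *Notch4* was also higher in venous EC-like (1.81, 1.22 to 2.71) and capillary blood EC-like cells (1.18, 1.06 to 1.31). The same held for blood EC-like cells of no further class (1.36, 1.13 to 1.64). In the arterial EC-like, mural-like, fibroblast-like, and keratinocyte-like classes its interval included 1. Of 35 other pathway genes with at least 100 UMIs in LEC-like cells, *Efnb2* had the lowest ratio (284 against 187 CPM, 0.659, 0.625 to 0.695). *Nrarp*, a Notch-induced inhibitor of Notch, had the highest (20.4 against 34.7 CPM, 1.70, 1.46 to 1.97). The median ratio of these 35 genes was 1.07.

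**Figure D5:**
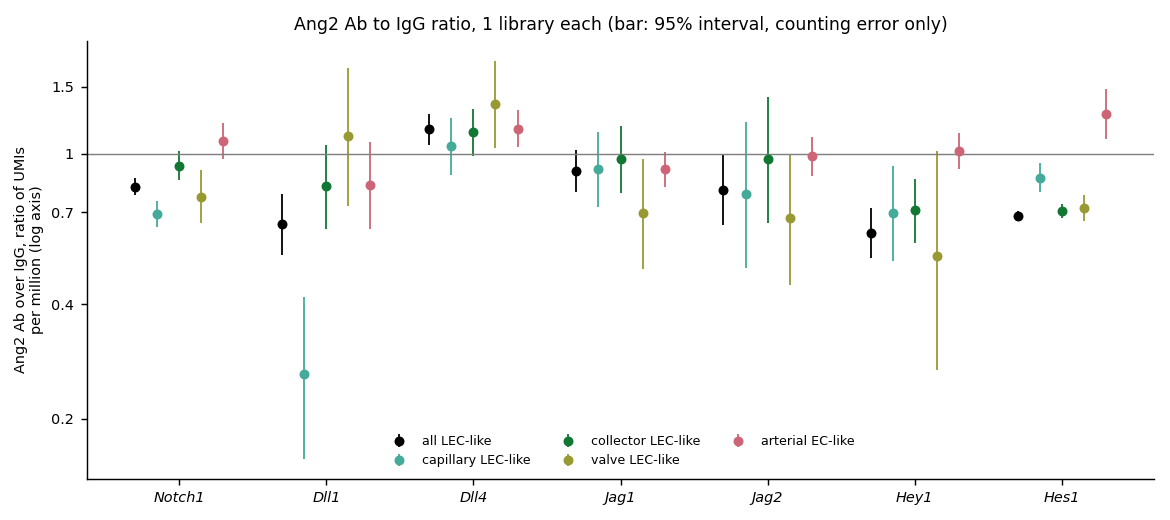
Ratio of CPM after Ang2 Ab to those after IgG for 7 genes, on a log axis, in all LEC-like cells, in capillary, collector, and valve LEC-like cells, and in arterial EC-like cells, with 95% intervals for counting error as bars. *Dll1* in capillary LEC-like cells is lowest at 0.262, and *Hey1* is at 1.02 in arterial EC-like cells.

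Side by side, the 3 models shared no samples. Plate values are log2 fold changes, and Ang2 Ab values are linear ratios from 1 library per treatment, so their sizes cannot be compared directly. Platform and days of treatment also differed. *Dll1* changed by a log2 of -3.28 with Tie1/-2 deletion and of -0.07 (not called) with Tie1 deletion, and had a ratio of 0.651 after Ang2 Ab. *Hey1* gave -2.95, 0.00 (not called), and 0.618, and *Efnb2* -2.21, -0.47 (not called), and 0.659. *Dll1*, *Hey1*, and *Efnb2* are set out here because they were called with Tie1/-2 deletion in these same data. *Hes1*, by contrast, gave -0.15 and 0.49 on the plates, neither called, and 0.685 after Ang2 Ab. *Nrarp* went the other way, with 0.73 (SE 0.65) for Tie1/-2 and 0.57 (SE 0.65) for Tie1 deletion. Neither was called, the plates overlapped in both, and its ratio after Ang2 Ab was 1.70.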

How the data were processed

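Gene counts of 8 Smart-seq plates and UMI counts of 2 10x libraries, 10 samples in all, were used as the authors deposited them, as whole-number counts without normalization. The submitters' processing notes list TopHat2 2.1.1, SAMtools 0.1.18, featureCounts, R 3.5.1, Seurat 4.0 and 4.0.6, Cell Ranger 2.1.1, and GRCm38, with no roles. No columns of sample values were left unmapped, and the files held no comparisons of the authors. Plate tables keyed by symbol or by gene ID were joined, keeping 95.5% to 96.7% of the counts of a plate. Wells needed 1000 genes, and cells 500 genes and no more than 10% of UMIs from mitochondria. Both were clustered (scanpy 1.11.5, Leiden) without the Notch genes and named from markers, and fibroblast-like and keratinocyte-like wells were removed. Scrublet marked 20 IgG and 2 Ang2 Ab cells and is taken not to have worked, so doublets may remain.

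LEC wells were summed per plate and tested with edgeR 4.0.16 (quasi-likelihood, TMM, filterByExpr, Benjamini-Hochberg) over all 8 plates, in 4 contrasts. The procedure was tested on simulated data. For Tie1 and Tie1/-2 deletion it recovered 5.97% and 4.48% of simulated log2 changes of 1. It recovered 41.8% and 43.3% of those of 2, and 86.4% and 83.3% of those of 3. Genes without a call may therefore have changed. In the droplet libraries, with 1 library per treatment, UMIs were summed per class and ratios were given without a test. Alternatives tried were DESeq2 1.42.0, limma 3.58.1 on mean CPM per well, other scaling and filters, a replicate block, a term for the table layout, other cell filters and clusterings, and leaving out each plate. The members, the gene lists, and the tests were chosen with earlier results of these data known. Named were the 10 members, the other pathway genes that were called or had the lowest or highest ratio, and the 3 genes most alike to each member. No protein sequences were used here. Same-numbered plates are not known to share an animal, litter, or day.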

Additional observations from a re-analysis of the deposited data

How the results depend on the processing

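The falls of *Dll1* and *Hey1* with Tie1/-2 deletion kept their direction in all alternatives run and were called in all of them, except that *Hey1* lost its call without any 1 of the 4 plates of that line (1 to 2 members called over the plates left out). Counts of all genes called moved more. DESeq2 called 242 genes for Tie1 deletion, 1100 for Tie1/-2 deletion, 506 for the difference, and 964 for the average. Without a filter on low counts they were 270, 1173, 613, and 1081, and with limma 1, 456, 78, and 339. Leaving out 1 plate gave 79 to 217 genes for Tie1/-2 deletion, 2 to 17 for the difference, and 52 to 144 for the average. The difference also fell to 11 genes with the table layout as a term and to 17 with no cluster removed. Members called in the difference were 2 with DESeq2, with no filter, and with limma, and in the average 3, 3, and 2 (0 to 1 with 1 plate left out). Same-numbered plates deviated together only weakly (correlations of 0.109 and 0.0946 in the pairs of groups), so the numbers were not taken as pairs. With the replicate block 2 members and 180 genes were called for Tie1/-2 deletion, 10 genes for the difference, and 118 for the average, and *Hey1* in Tie1 deletion was -0.059. Some uncalled log2 fold changes turned sign, and not all of them were near 0 in the main setting. There *Hey2* was at -2.16 with Tie1 deletion and at -3.73 with Tie1/-2 deletion. *Heyl* was at 4.46 and *Notch4* at 0.77 with Tie1 deletion. In Tie1 deletion *Hey1* was -0.011 with DESeq2, -0.014 with RLE factors, -0.010 with its 4 plates alone, -0.020 with the layout term, -0.019 with no cluster removed, -0.069 with limma, and -0.087 without collector LEC-like wells, with -0.59 to 0.43 over the plates left out. There *Notch4* was -0.16 with limma and *Dll1* 0.082 without collector LEC-like wells, and over the plates left out *Notch1* lay between -0.13 and 0.68, *Notch4* between -0.0044 and 2.56, *Dll1* between -0.43 and 0.21, *Hey2* between -3.77 and 0.48, and *Heyl* between -0.26 and 8.76. With Tie1/-2 deletion *Jag2* was 0.11 without collector LEC-like wells and *Hey2* 1.25 with no cluster removed. Over the plates left out *Dll4* lay between -0.059 and 0.40, *Jag1* between -0.35 and 0.57, *Jag2* between -0.52 and 0.30, and *Hes1* between -0.39 and 0.063. Over all comparisons of single values with the main setting, those above included, 27 changed sign, 33 lost a call, 16 gained one, and 2 ratios moved beyond their interval. The remaining 545 kept direction and side of the threshold or, for ratios, stayed within the main interval. The causes were not tested. At this depth *Hey2* and *Heyl*, with 5 to 9 UMIs per library in LEC-like cells, allow no ratio.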
